A study of Drosophila melanogaster with 32 samples.

Results

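A group of 6 cell surface adhesion genes was followed in sorted cells of the developing Drosophila melanogaster ovary: Amalgam (Ama), Neurotactin (Nrt), wrapper, Connectin (Con), Fasciclin 2 (Fas2) and Fasciclin 3 (Fas3). They are 6 of the 16257 genes in the count table. They were chosen by measured values, as neural-type adhesion genes seen to differ between hpo RNAi and yki RNAi in somatic cells, together with Nrt as the partner of Ama and with the Fasciclins. The somatic difference between the RNAi conditions is therefore a description here, without a test. Tests were made between cell types, between stages and within the germ line. The choice used none of these differences, but the first and second of them share the somatic libraries with it, and the genes had to be expressed there to be chosen.

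Adhesion proteins of this kind sit on or between cells and hold neighbours together by binding a like or an unlike partner. Most were first studied in the nervous system, where they guide, bundle and ensheathe axons, and several are also found on epithelia and in gonads. In the larval ovary, somatic cells sort and stack into terminal filaments, which later organise the niche of the germ line stem cells. The kinase Hippo (hpo) restrains Yorkie (yki), a transcriptional co-activator that drives growth, so that reducing hpo releases Yorkie and reducing yki lowers it.

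Polyadenylated RNA was sequenced from GFP-positive cells sorted from larval ovaries. Somatic cells carried bab:GAL4>UAS hpo RNAi, UAS GFP or bab:GAL4>UAS yki RNAi, UAS GFP, and germ line cells carried the same RNAi and GFP transgenes under nos:GAL4, in a driver stock that also holds UAS-Dcr-2. Ovaries were taken early (72 h after egg laying), mid (96 h) or late (120 h); the early and mid animals were III instar larvae, and the late stage is labelled white pupa. There were 30 libraries in 10 groups of 3, with 18 somatic libraries (early, mid and late) and 12 germ line libraries (mid and late). All groups carried 1 of the RNAi transgenes and GFP, and no group without RNAi was used here, so a gene lower under hpo RNAi and a gene higher under yki RNAi cannot be told apart. The sort takes only cells in which the driver is active, and each RNAi is represented by 1 transgenic line.

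Library totals were 34.8 ± 15.2 in units of 1000000 counts (SD, n = 30), from 15.2 to 75.1. The targeted genes checked the labels: hpo lay between 5.29 and 26.6 CPM (counts per 1000000 counts of the library) in somatic libraries under hpo RNAi and between 72.8 and 129 CPM in those under yki RNAi. For yki the somatic ranges were 16.5 to 32.9 CPM and 5.05 to 14.9 CPM, in the same order. In the mid germ line yki lay between 10.3 and 15.8 CPM with hpo RNAi and between 6.92 and 8.58 CPM with yki RNAi, and in the late germ line the ranges, 9.26 to 10.4 and 8.16 to 9.58 CPM, overlapped. The 9 somatic ovary markers summed to between 1665 and 4227 CPM in somatic libraries and between 74.3 and 244 CPM in germ line libraries, and 8 germ line markers to between 6.70 and 79.5 CPM and between 5562 and 6966 CPM. Neuronal markers (elav, nSyb, Syt1, brp and para) summed to between 12.6 and 51.0 CPM in somatic libraries and between 25.0 and 63.5 CPM in germ line libraries. Most of the somatic sum was elav, with group means of 16.7 to 28.3 CPM. In the soma nSyb, Syt1, brp and para had group means of at most 1.95 CPM.

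The name under which the genes were grouped, lower under hpo RNAi, held at every stage for only 3 of them. In the soma, Ama, wrapper and Con were lower under hpo RNAi than under yki RNAi early, mid and late, without overlap between libraries. Nrt was higher early and mid and slightly lower late. Fas2 was slightly higher early, overlapped mid and was slightly lower late. Fas3 was lower early and mid and higher late. By the sign of the fitted log2 fold change, 4, 5 and 5 of the 6 genes were lower under hpo RNAi (early, mid and late), with medians of -1.56, -1.87 and -0.63, whereas the medians over all 10672 somatic genes tested were 0.0013, -0.0040 and 0.02. Libraries did not overlap for 2 genes higher and 4 lower early, 1 and 4 mid, and 1 and 5 late. Over all genes the shares without overlap were 7.03% higher and 7.2% lower early, 5.46% and 7.85% mid, and 11.8% and 12.6% late. Because these values chose the genes, nothing is read from the difference.

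**Figure D1:**
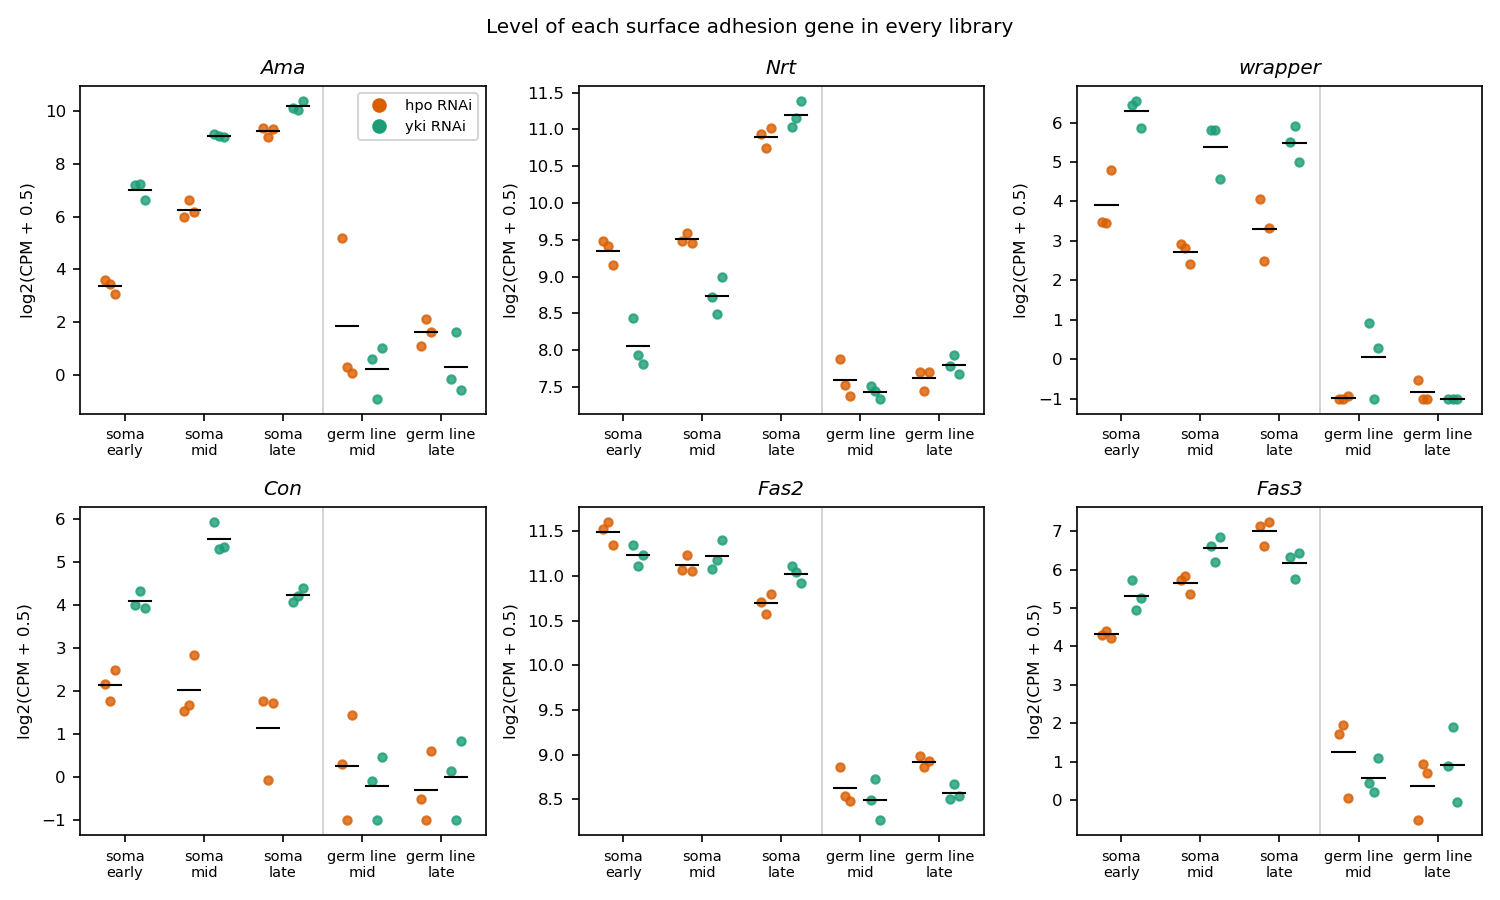
Level of each of the 6 genes in each of the 30 libraries, as log2(CPM + 0.5); orange points are hpo RNAi libraries, green points yki RNAi libraries, and bars are the means of 3 libraries. Ama, wrapper and Con lie lower in orange than in green at each somatic stage, and all 6 genes have lower means in the germ line at the mid and late stages.

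**Figure D2:**
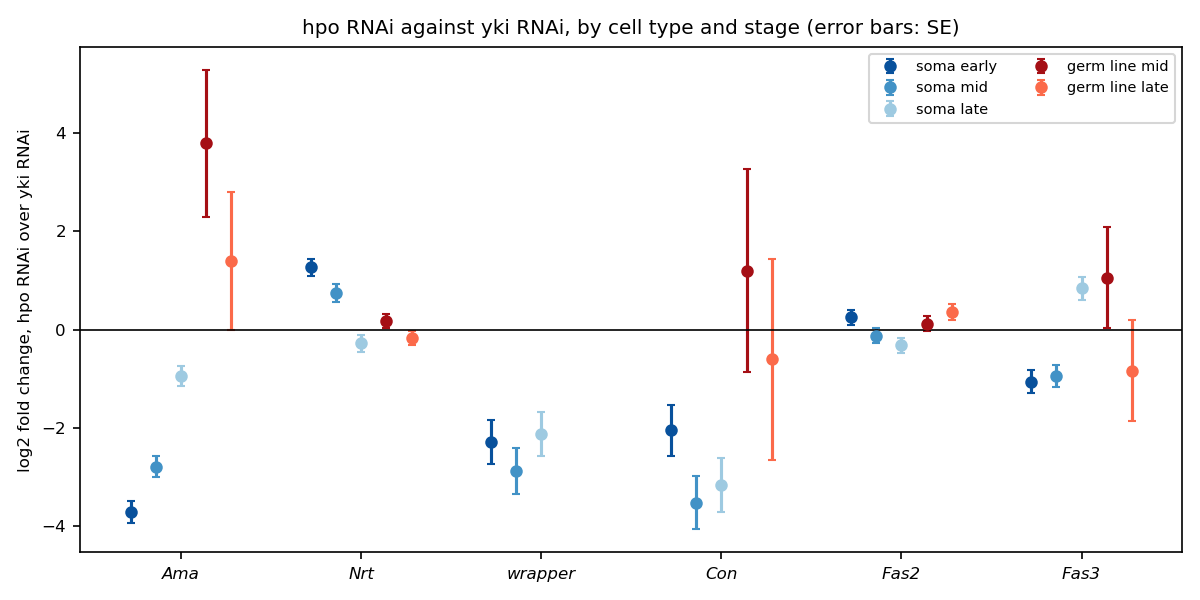
Fitted log2 ratio of hpo RNAi to yki RNAi for each gene, with its standard error as the bar, for 3 somatic stages and 2 germ line stages. The somatic points are a description of the contrast that chose the genes; wrapper has no germ line point because its counts there were below the filter.

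Ama encodes a secreted protein of immunoglobulin domains that binds Neurotactin and so links cells that carry it. The gene (FBgn0000071) lies on chromosome 3R at 6762593 to 6765261 on the plus strand of BDGP6.54, with 1946 bases of exon. In the early soma its libraries stood at 11.8, 10.4 and 7.91 CPM under hpo RNAi and at 146, 151 and 98.1 CPM under yki RNAi. In the mid soma they stood at 63.0, 96.9 and 71.3 CPM against 555, 529 and 517 CPM. All 3 hpo RNAi libraries were below all 3 yki RNAi libraries at both stages, by more than the spread within either group. Late, they stood at 657, 508 and 631 CPM against 1098, 1051 and 1321 CPM, again without overlap. The log2 ratio of hpo RNAi to yki RNAi went from -3.72 (SE 0.22) early through -2.80 (SE 0.21) mid to -0.94 (SE 0.20) late, the difference between early and late not having been tested. As fitted folds, Ama was 13.2 times higher under yki RNAi early, 6.94 times mid and 1.92 times late.

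With stage, Ama rose in the soma under both RNAi conditions. Its group mean went from 10.0 ± 1.96 to 77.1 ± 17.7 and 598 ± 79.8 CPM under hpo RNAi (SD, n = 3 each), and from 132 ± 29.1 to 533 ± 19.3 and 1157 ± 144 CPM under yki RNAi. Under hpo RNAi the log2 fold change was 2.99 (SE 0.22) from early to mid, with an adjusted p of 3.89e-07 by edgeR's quasi-likelihood test with Benjamini-Hochberg adjustment, and 2.97 (SE 0.22, adjusted p 4.21e-08) from mid to late. Under yki RNAi it was 2.06 (SE 0.21, adjusted p 7.75e-05) from early to mid and 1.11 (SE 0.20, adjusted p 8.97e-04) from mid to late. Each of these 4 steps was without overlap between libraries. At the late stage Ama under hpo RNAi (508 to 657 CPM) overlapped the range that it had at the mid stage under yki RNAi (517 to 555 CPM). The stage tests use the same libraries as the contrast that chose the genes, though not the same difference.

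A hemocyte marker list rose with stage beside Ama, but followed it between the RNAi conditions only late. Its 4 genes summed early to between 34.8 and 49.9 CPM under hpo RNAi and between 27.1 and 32.2 CPM under yki RNAi, the opposite side from Ama, and mid to 70.2 to 180 and 56.6 to 140 CPM, which overlap. In late somatic libraries they summed to between 940 and 1126 CPM under hpo RNAi and between 1670 and 1858 CPM under yki RNAi. Most of the late sum was Pxn, a peroxidase of the extracellular matrix, with group means of 948 and 1662 CPM. The rest of the late sum was nearly all srp, another gene of the list. The blood cell genes Hml and NimC1 had somatic group means of at most 1.19 and 0.160 CPM. In these bulk samples, fewer cells of a type and less RNA per cell cannot be told apart.

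In the germ line Ama was near the bottom of its range. Its mid libraries stood at 36.4, 0.737 and 0.559 CPM under hpo RNAi and at 1.02, 0.0438 and 1.54 CPM under yki RNAi, and its late libraries at 1.65, 3.91 and 2.61 against 0.418, 2.62 and 0.176 CPM. One library, mid hpo RNAi replicate 1, stood far above the others, and the groups overlapped at both stages. That library also had the highest sum of somatic ovary markers in the germ line, 244 CPM where the other germ line libraries had 74.3 to 119 CPM, and of hemocyte markers, 61.9 CPM where the others had 5.11 to 14.7 CPM; their part in the Ama value was not tested. The mid log2 fold change of 3.79 (SE 1.50, adjusted p 0.711) became -0.40 without it.

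Nrt encodes a transmembrane protein whose outer part resembles a cholinesterase and serves as the receptor for Amalgam. The gene (FBgn0004108, chromosome 3L, 16766072 to 16777465, plus strand, 4281 bases of exon) was abundant in every library. In the early soma it stood at 714, 682 and 572 CPM under hpo RNAi and at 345, 245 and 225 CPM under yki RNAi, and in the mid soma at 718, 769 and 704 against 422, 359 and 512 CPM. At both stages every hpo RNAi library was the higher, the opposite side from Ama in the same libraries. Late, the order was the other way and the gap narrow, with 1956, 1713 and 2077 CPM with hpo RNAi and 2088, 2279 and 2679 CPM with yki RNAi. For Nrt the log2 ratios of hpo RNAi to yki RNAi were 1.26 (SE 0.18), 0.74 (SE 0.18) and -0.28 (SE 0.18). The late groups did not overlap, but the late log2 ratio was of the same order as its SE.

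Nrt rose late in the soma in both conditions. From mid to late the log2 fold change was 1.41 (SE 0.18, adjusted p 1.95e-05) under hpo RNAi and 2.44 (SE 0.19, adjusted p 8.01e-08) under yki RNAi, by the same edgeR test. From early to mid it was 0.19 (adjusted p 0.658) under hpo RNAi, with overlapping libraries, and 0.71 (adjusted p 0.0855) under yki RNAi, without overlap. The latter was called by DESeq2 (adjusted p 0.00401) and without yki RNAi early replicate 1 (log2 0.88, adjusted p 0.0302), with adjusted p up to 0.475 over the alternatives. In the germ line Nrt kept to a narrow band of 162 to 245 CPM over all 12 libraries, with group means between 173 ± 10.0 and 224 ± 20.3 CPM (SD, n = 3). Nrt shares 935 of its exon bases, 21.84%, with mus302 on the other strand, and the strand counted is not given in the sources used here, so reads from that stretch cannot be told apart. Counts given to mus302 had group means of 13.8 to 27.0 CPM in the soma and 55.4 to 71.3 CPM in the germ line. Ama shares 102 exon bases, 5.24%, with lncRNA:CR45593 on the other strand, whose group means were at most 2.61 CPM.

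The RNA of ligand and receptor can be set side by side per exon length, though protein was not measured. In the soma the ratio of Ama to Nrt, in CPM per kilobase of exon, was 0.0335 ± 0.0029 early, 0.231 ± 0.043 mid and 0.686 ± 0.046 late under hpo RNAi (SD, n = 3 each). Under yki RNAi it was 1.08 ± 0.24 early, 2.79 ± 0.52 mid and 1.09 ± 0.07 late. By this measure, which depends on the exon length taken, Ama RNA was below Nrt RNA at every stage under hpo RNAi. Under yki RNAi it was near Nrt early and late and above it mid. Ratios of the conditions did not overlap at any stage, and the nearest were late, at most 0.739 against at least 1.01. The Ama values are among those that chose the genes, so nothing is read from this gap. In the germ line the ratio was at most 0.0493 in every library except mid hpo RNAi replicate 1, where it was 0.339.

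**Figure D3:**
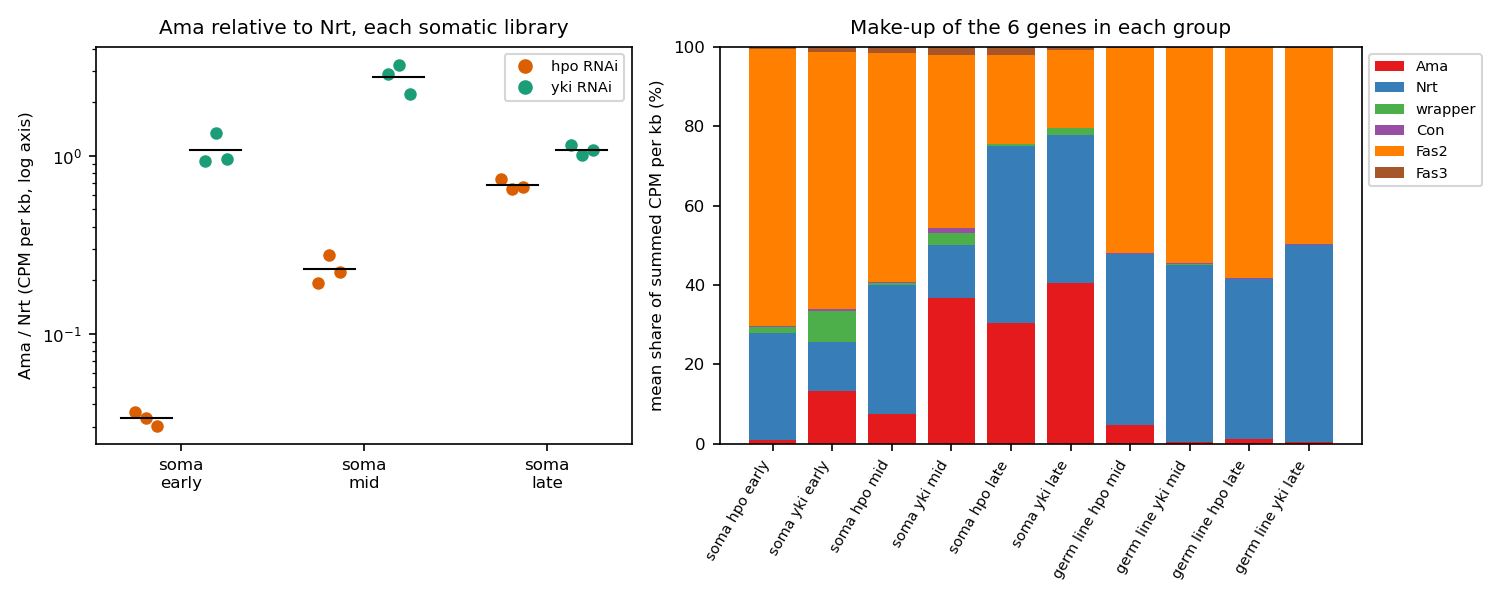
Left, ratio of Ama to Nrt in CPM per kilobase in each somatic library, on a log axis, with the mean of 3 libraries as a bar; the ratio is lower under hpo RNAi at each stage. Right, mean share of each gene in the summed CPM per kilobase of the 6 genes in each group; Fas2 takes 69.9% in the early soma under hpo RNAi and 19.6% in the late soma under yki RNAi.

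The 4 other genes differ in how they anchor and bind. The gene wrapper encodes an immunoglobulin domain protein held to the membrane by a lipid anchor, known from the glia that ensheathe axons at the midline. It (FBgn0025878) lies on chromosome 2R at 22379637 to 22382675 on the plus strand, and no other annotated gene overlaps it. In the early soma it stood at 10.6, 10.5 and 27.1 CPM under hpo RNAi and at 87.2, 93.2 and 57.6 CPM under yki RNAi. Mid values were 7.11, 6.58 and 4.85 against 55.7, 55.3 and 23.1 CPM, and late values 16.3, 5.14 and 9.57 against 45.2, 60.1 and 31.4 CPM. No hpo RNAi library reached a yki RNAi library of its stage, although replicate 4 under hpo RNAi early and replicate 3 under yki RNAi mid lay toward the other group. For wrapper the log2 ratios were -2.30 (SE 0.45), -2.88 (SE 0.46) and -2.12 (SE 0.45), and the first became -2.94 without hpo RNAi early replicate 4.

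No stage step passed edgeR's test for wrapper. Under hpo RNAi its libraries were lower mid than early without overlap (log2 -1.38, SE 0.44, adjusted p 0.112), and under yki RNAi likewise (log2 -0.79, SE 0.43, adjusted p 0.501). The step under hpo RNAi was called by DESeq2 (adjusted p 0.0335) and by edgeR without a filter on low counts (adjusted p 0.0493), and its adjusted p over the alternatives reached 0.343. A glial marker list also differed between the RNAi conditions in the soma, summing to between 75.3 and 134 CPM under hpo RNAi and between 147 and 221 CPM under yki RNAi. Nearly all of that was moody, a receptor of the insulating glia, with group means of 81.0 to 208 CPM. The defining glial genes repo, alrm and gcm had somatic group means of at most 0.316, 0.298 and 0.0333 CPM.

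Con encodes a leucine-rich repeat protein with a lipid anchor that binds its own kind and is known from motor neurons and the muscles they meet. The gene (FBgn0005775, chromosome 3L, 4936758 to 5079033, minus strand) was the least abundant of the 6 in the soma per exon length. Its early values were 3.98, 2.91 and 5.13 CPM with hpo RNAi and 15.5, 19.5 and 14.8 CPM with yki RNAi. Mid values were 2.41, 2.69 and 6.67 against 59.9, 39.1 and 39.9 CPM, and late values 2.90, 0.448 and 2.79 against 16.4, 17.95 and 20.6 CPM. The hpo RNAi libraries stayed below all yki RNAi libraries of every stage. For Con the log2 ratios were -2.06 (SE 0.51), -3.53 (SE 0.54) and -3.16 (SE 0.54), and the mid value became -4.21 without hpo RNAi mid replicate 3. Under yki RNAi the mid libraries were above those of both other stages without overlap, but neither step passed edgeR's test (early to mid log2 1.50, adjusted p 0.247; mid to late log2 -1.34, adjusted p 0.0891). The later step was called by DESeq2 (adjusted p 0.0414) and when only the 6 compared libraries were fitted (adjusted p 0.00452), with adjusted p up to 0.277 over the alternatives. Muscle markers summed to 52.1 to 154 CPM under hpo RNAi and 68.2 to 177 CPM under yki RNAi in the early and mid soma, ranges that overlap.

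Fas2 encodes a homophilic immunoglobulin domain protein, the fly relative of the vertebrate NCAM, which bundles axons and also marks follicle cells of the adult ovary. The gene (FBgn0000635, chromosome X, 4132887 to 4206093, minus strand, 7306 bases of exon) was the most abundant of the 6 in early soma and mid soma per exon length. Early somatic libraries stood at 2958, 3103 and 2607 CPM under hpo RNAi and at 2596, 2216 and 2410 CPM under yki RNAi, groups that only just did not overlap. Mid libraries overlapped, at 2137, 2406 and 2133 against 2165, 2323 and 2700 CPM. Late libraries stood at 1675, 1519 and 1779 against 2204, 2106 and 1931 CPM, with hpo RNAi the lower. For Fas2 the log2 ratios were 0.25, -0.12 and -0.32 (SE 0.15 at each stage). Under hpo RNAi the Fas2 libraries stepped down from stage to stage without overlap, though neither step passed edgeR's test (log2 -0.34, adjusted p 0.243, and -0.40, adjusted p 0.0837). The step from mid to late was called by DESeq2 (adjusted p 0.0116) and with a stricter filter on low counts (adjusted p 0.0234), with adjusted p up to 0.302 over the alternatives.

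Fas3 encodes another homophilic immunoglobulin domain protein, found at septate junctions and used as a marker of ovarian follicle cells. The gene (FBgn0000636, chromosome 2L, 18320102 to 18393441, plus strand, 6612 bases of exon) stood early at 19.3, 20.6 and 18.3 CPM under hpo RNAi and at 52.7, 30.4 and 37.8 CPM under yki RNAi. Mid values were 53.0, 56.0 and 40.8 against 98.3, 72.9 and 114 CPM. Late values were 141, 98.0 and 149 against 79.6, 53.3 and 86.1 CPM. The hpo RNAi libraries were thus all lower early and mid and all higher late. For Fas3 the log2 ratios were -1.06, -0.95 and 0.84 (SE 0.23 at each stage). A list of 2 tracheal markers, btl and trh, lay on the same side as Fas3 mid and late: it summed mid to 2.80 to 4.14 CPM under hpo RNAi and 8.91 to 15.0 CPM under yki RNAi, and late to 23.8 to 26.4 and 9.86 to 16.1 CPM. Early its sums overlapped, at 3.11 to 5.81 and 0.832 to 6.21 CPM. Nearly all of the sum was btl, a receptor of fibroblast growth factor, while trh, which defines the trachea, had somatic group means of at most 0.662 CPM; their part in the Fas3 values was not tested. Under hpo RNAi Fas3 rose at both steps (log2 1.39, adjusted p 0.00245, and 1.40, adjusted p 3.02e-04, by the same edgeR test). Under yki RNAi it rose from early to mid (log2 1.28, SE 0.23, adjusted p 0.00872), and from mid to late its log2 fold change was -0.38 (adjusted p 0.321) with overlapping libraries. The early to mid call under yki RNAi was lost when yki RNAi early replicate 2 or 3, or mid replicate 3, was left out, with adjusted p up to 0.0628, and when only the 6 compared libraries were fitted (adjusted p 0.0962).

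Across the stage steps in the soma, 2 of the 6 genes rose from early to mid under hpo RNAi (Ama and Fas3) and 3 from mid to late (Ama, Nrt and Fas3), where 1.15% and 9.43% of all tested genes rose. Under yki RNAi the counts were 2 (Ama and Fas3) and 2 (Ama and Nrt), where 0.534% and 6.65% of all genes rose. None of the 6 genes fell by edgeR's test at any of these 4 steps. Of all tested genes 1.56% fell early to mid and 6.38% mid to late under hpo RNAi. Under yki RNAi 0.15% and 6.53% fell, so a count of 0 of the 6 lies near the background. DESeq2, which called more of all genes than edgeR at each of these steps, called wrapper, Fas2 and Con lower at 1 step each, as given above. Lower libraries without overlap at the later stage were found for 2, 1, 1 and 1 of the 6, where 8.3%, 16.7%, 4.41% and 15.5% of all genes had them, so the counts at the mid to late steps lie near the background. Of the 40 other adhesion genes tested, 0 rose and 5 fell from early to mid under hpo RNAi, and 15 rose and 1 fell from mid to late. Under yki RNAi 0 rose and 0 fell from early to mid, with 4 at an unadjusted p under 0.05, and 10 rose and 3 fell from mid to late. Of all 10672 genes tested, 1249 had an unadjusted p under 0.05 from early to mid under yki RNAi.

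All 6 genes had higher means in the soma than in the germ line at the mid and late stages. The gene wrapper was below the filter on low counts in the germ line and entered this comparison only through the soma, so that it had to differ; its counts are given separately below. Of the 5 other genes, edgeR's quasi-likelihood test called 4 higher in the soma under hpo RNAi both mid and late, where 19.4% and 19.1% of the 12089 genes tested were called. Under yki RNAi all 5 were called both mid and late, where 19.5% and 19.8% of the genes were. Because the genes had been chosen in somatic libraries, nothing about them is read from these shares. The gene not called under hpo RNAi was Con, with a log2 fold change of 2.36 (SE 1.08, adjusted p 0.0867) mid and 2.63 (SE 1.14, adjusted p 0.0725) late. It was called without germ line hpo RNAi replicate 4 of either stage (log2 3.92, adjusted p 0.0289 mid, and 4.99, adjusted p 0.0181 late), late also without soma hpo RNAi replicate 2 (log2 3.12, adjusted p 0.0483) and late also by DESeq2 (adjusted p 0.0253), with adjusted p up to 0.274 mid and 0.207 late over the alternatives. The median log2 fold change of the 5 genes was 2.91, 3.69, 6.81 and 5.17 (hpo RNAi mid and late, yki RNAi mid and late). For the 43 other adhesion genes tested the medians were 0.94, 1.29, 1.43 and 1.32, and over all genes -0.09, -0.12, -0.13 and -0.13. These sets were not limited to genes that passed the germ line filter, which 39 of the other adhesion genes did. The 5 had also been chosen in somatic libraries, so nothing is read from the difference in medians. Among those other adhesion genes 21, 23, 21 and 22 were called higher in the soma and 7, 2, 4 and 1 lower.

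The size of the difference between cell types set the genes apart from each other. Nrt and Fas2 were clearly present in the germ line, with log2 fold changes of soma over germ line between 1.69 and 3.80 for Nrt and between 2.19 and 3.09 for Fas2. Ama, Fas3, wrapper and Con were at most 3.91 CPM in every germ line library but the one named above for Ama. For Ama the log2 fold changes were 3.11 mid and 8.17 late with hpo RNAi, and 9.52 mid and 10.67 late with yki RNAi. The smallest of these, with an adjusted p of 0.00709, became 7.35 without germ line mid hpo RNAi replicate 1 and 2.53 without replicate 4, and it was not called when only the 6 compared libraries were fitted (log2 3.03, adjusted p 0.133). Under yki RNAi the Ama values became 10.27 without germ line mid replicate 4 and 12.40 without germ line late replicate 2, or 10.05 without late replicate 3. For Con they were 7.02 mid and 5.17 late with yki RNAi, and became 8.04 without germ line mid replicate 4 and 6.26 without germ line late replicate 3. For Fas3 they lay between 4.98 and 7.47, all with an adjusted p of at most 9.02e-08, and the late value under yki RNAi, 5.93, became 6.79 without germ line late replicate 2.

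In the germ line wrapper had 2 counts mid and 3 counts late over the hpo RNAi groups, 82 counts in the mid yki RNAi group and 0 in the late one. Relative to the summed library totals, the count in the soma was 350 times that in the germ line mid under hpo RNAi (95% interval 96.4 to 2895, exact and for counting error only) and 263 times late (89.9 to 1280). Under yki RNAi wrapper was 66.5 times higher in the mid soma by pooled counts. In the late soma it was at least 1099-fold higher, for counting error only. That value takes 3 counts over the germ line group as the most that a count of 0 allows. It does not cover the spread between libraries: the mid germ line libraries under yki RNAi held 38, 0 and 44 counts.

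Between the RNAi conditions the germ line gave no call. Of the 5 genes that passed the filter on low counts there, edgeR called 0 mid and 0 late, as did DESeq2, and 1 at each stage had an unadjusted p under 0.05 (Ama mid and Fas2 late). Over all 10717 genes tested 0.103% were called mid and 0.187% late, and 739 mid and 822 late had an unadjusted p under 0.05. Fas2 late stood at 504, 465 and 486 CPM under hpo RNAi and at 363, 408 and 370 CPM under yki RNAi, without overlap (log2 0.36, SE 0.16, adjusted p 0.632). Nrt stood at 208, 175 and 209 against 221, 245 and 205 CPM late, with overlap. From mid to late in the germ line 0 of these 5 genes were called under either RNAi by edgeR or DESeq2, and 0 and 1 had an unadjusted p under 0.05, where 0% and 0.0187% of all genes were called. Among the 10717 genes, 659 under hpo RNAi and 603 under yki RNAi had an unadjusted p under 0.05 at that step.

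The order of the 10 groups differed from gene to gene. Ama was highest in the late soma under yki RNAi, and its next group, the late soma under hpo RNAi, overlapped the mid soma under yki RNAi. Nrt was highest in the late soma under either RNAi, and its lowest somatic group, early yki RNAi, overlapped the highest germ line group. For wrapper the highest group was early yki RNAi (79.4 ± 19.1 CPM, SD, n = 3), and the 3 yki RNAi groups and early hpo RNAi overlapped each other in turn. Con was highest mid under yki RNAi (46.3 ± 11.8 CPM), apart from the next group. Fas2 was highest early under hpo RNAi (2889 ± 255 CPM), and the 4 groups after it overlapped each other in turn. Fas3 was highest late under hpo RNAi (129 ± 27.6 CPM), and each of the 5 highest groups overlapped its neighbour.

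Over the 18 somatic libraries the 6 genes did not form 1 pattern. Pearson's r of log2 CPM, given as a description of libraries that share stages and RNAi conditions, was 0.87 between Ama and Fas3 and 0.80 between wrapper and Con. It was 0.47 between Ama and Nrt, -0.65 between Fas2 and Fas3, and -0.01 between wrapper and Fas3. Among all tested genes, those most like each member over the same libraries were smal for Ama (0.97), rdo for Nrt (0.98), Pka-C3 for wrapper (0.90), Adgf-A for Con (0.90), Fas1 for Fas2 (0.93) and CG8180 for Fas3 (0.95). Next came FBgn0029082 and mth for Ama, Uggt and CG6650 for Nrt, mfas and ap for wrapper, AOX3 and Tep4 for Con, CG9098 and Stat92E for Fas2, and CG6357 and RapGAP1 for Fas3. The likeness of wrapper to mfas was 0.89.

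Between hpo RNAi and yki RNAi in the soma, the stage at which most other adhesion genes were called depended on the fit. The table held 46 such genes, and 40 of them passed the filter; edgeR called 1 early, 7 mid and 0 late, with 14, 16 and 9 at an unadjusted p under 0.05, and DESeq2 called 9, 10 and 2. With only the compared libraries edgeR called 1, 3 and 10, where 76, 137 and 641 of all genes were called. Over all genes edgeR's main fit called 2.45% early, 2.5% mid and 1.03% late, so the early count of 1 of 40 lies near that share. Of the 10672 genes tested, 2136, 1359 and 615 had an unadjusted p under 0.05. None of the 40 was called at more than 1 stage in the main fit, so the genes named next were chosen after their values were seen. The mid calls were echinoid (ed), higher, and Dscam1, Dscam3, caps, kek1, mfas and Ptp10D, lower under hpo RNAi. The median log2 fold changes of the 40 were -0.13 early, -0.39 mid and -0.07 late, against -1.56, -1.87 and -0.63 for the 6 chosen genes. This contrast chose the 6, so nothing is read from the difference in medians.

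Among them mfas, which encodes a secreted relative of Fasciclin 1, had the smallest adjusted p mid. Its libraries stood at 483, 387 and 348 CPM under hpo RNAi and at 1476, 1425 and 925 CPM in the yki RNAi libraries (log2 -1.68, SE 0.18, adjusted p 4.39e-05). Early and late its hpo RNAi libraries were also lower without overlap, with log2 -0.67 (adjusted p 0.0575) and -0.57 (adjusted p 0.256). Fas1, a lipid-anchored homophilic adhesion protein, overlapped between the conditions early and mid and was lower under hpo RNAi late (534, 590 and 553 against 928, 859 and 775 CPM; log2 -0.60, adjusted p 0.0957). The immunoglobulin domain gene ed, which encodes a homophilic protein of epithelial junctions, stood mid at 186, 238 and 180 CPM under hpo RNAi and at 63.2, 72.9 and 91.1 CPM in the yki RNAi libraries (log2 1.39, adjusted p 0.00962). Dscam3 had no count in the 3 mid libraries under hpo RNAi and 5.39, 15.5 and 5.48 CPM in the yki RNAi libraries. That is at least 312-fold higher when 3 counts over the group are taken as the floor, for counting error only. The floor does not cover the spread between libraries, which for Dscam3 stood at 0, 4.79 and 3.97 CPM early under hpo RNAi. The early call was Nlg2, a neuroligin, with no count in the yki RNAi libraries and 17.9, 4.26 and 2.28 CPM under hpo RNAi. By the same floor it was at least 355-fold higher, again for counting error only, and 1 library held most of the mean. With the stricter filter the 1 early call was instead a gene lower under hpo RNAi.

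**Figure D4:**
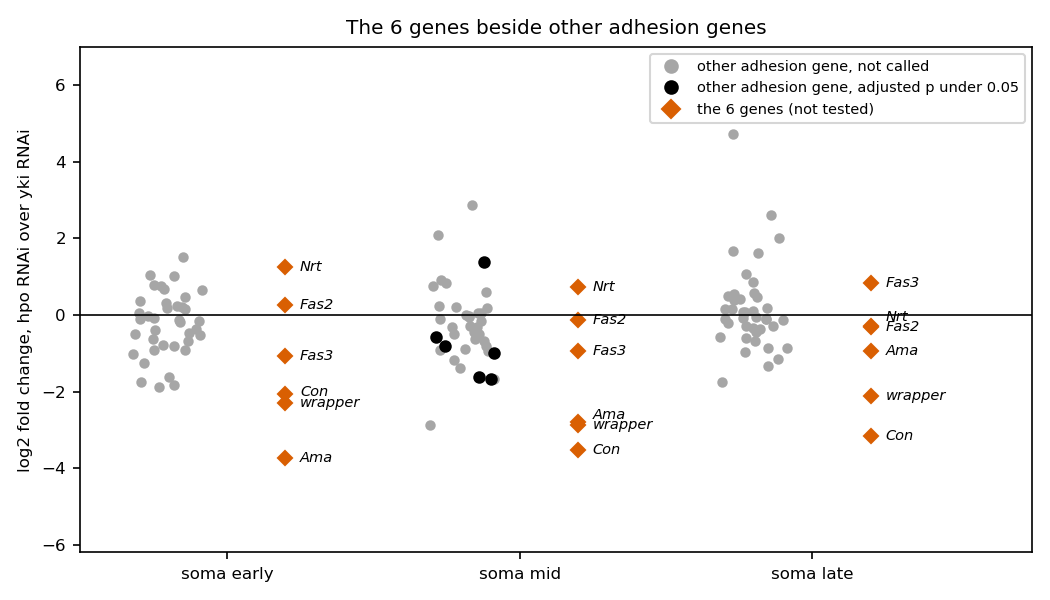
Fitted log2 ratio of hpo RNAi to yki RNAi in the soma at each stage for the other adhesion genes with counts in both groups (grey, or black where the adjusted p was under 0.05) and for the 6 chosen genes (orange diamonds, not tested). Ama, wrapper and Con lie between -0.94 and -3.72, while Nrt, Fas2 and Fas3 lie on both sides of 0.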

How the data were processed

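The authors deposited expected counts (estimated counts) per gene for each sample, with no normalization, as the values show. Per the submitters' processing notes, bcl2fastq 2.2, STAR 2.7.6a, RSEM 1.3.3 and DESeq2 1.26.0 were used; the genome build and the strand counted are not given in the sources used here. Reads were 50 bases, single end, per the labels' protocols. Of the values, 86.5% were whole to within 1e-06. Columns were matched to samples by title. Of 48 columns, 30 were used and 18, of controls from an earlier series, were not; 2 early germ line samples, 1 per RNAi, are not analysed here.

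Counts were rounded and analysed in R 4.3.3 with edgeR 4.0.16: TMM scaling, filterByExpr with a minimum count of 10, trended dispersion, group means, and the quasi-likelihood test with Benjamini-Hochberg adjustment over all genes tested. Genes with an adjusted p under 0.05 are called. The somatic libraries (10672 genes), the germ line libraries (10717) and all 30 libraries (12089, for soma against germ line) were fitted separately. A standard error (SE) was taken as the size of the log2 fold change over the square root of F. CPM are counts per 1000000 of the library total, without TMM except where TMM-scaled CPM are named and for Pearson's r. Pearson's r used log2 CPM with TMM scaling and a prior count of 2. Exon lengths and positions come from BDGP6.54. The labels speak of biological replicates without naming animals, so p-values measure the spread between these libraries. Intervals and floors cover counting error only.

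The 6 genes, the list of 47 other adhesion genes (46 with a row) and the marker lists were chosen with earlier results of these data known. Named genes were the 6, the 3 genes of highest Pearson's r with each, and other adhesion genes called in at least 2 stages in 1 direction, of which there were 0. Alternatives were DESeq2 1.42.0, RLE size factors, no filter, a stricter filter (5 CPM in 3 libraries), only the compared libraries, a replicate term, and leaving out each library. The edgeR and DESeq2 fits were tested on simulated data.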

Additional observations from a re-analysis of the deposited data

Results flagged for a closer look

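For 3 of the 6 genes the libraries of hpo RNAi and yki RNAi separated without overlap in opposite directions at different stages or in different cell types. These differences were not tested, and the somatic values are among those that chose the genes. The share of all genes that separate in opposite directions was not counted, so nothing is read from 3 of 6. Separation in either direction was common by itself. Between hpo RNAi and yki RNAi it held for 14.2%, 13.3% and 24.4% of all genes tested in the soma (early, mid and late). For the germ line the shares were 9.96% mid and 17.5% late. In the soma Nrt had a log2 fold change of 1.26 early and 0.74 mid but of -0.28 late. Fas3 had -1.06 early and -0.95 mid but 0.84 late. Fas2 had 0.25 early but -0.32 late. Late, Fas2 was also on the other side in the germ line, where it was 0.36 against -0.32 in the soma. From mid to late under hpo RNAi, Fas2 changed by -0.40 on the log2 scale in the soma and by 0.26 in the germ line. The early somatic libraries of Fas2 were separated narrowly, the lowest under hpo RNAi standing at 2607 CPM and the highest under yki RNAi at 2596 CPM. The same separations and directions were found on TMM-scaled CPM, a check chosen after seeing the data.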

How the results depend on the processing

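The sign counts of the 6 genes between the RNAi conditions in the soma (4, 5 and 5 lower) and the germ line counts of 0 did not change under any alternative, although with the stricter filter only 2 of the members, Nrt and Fas2, were tested in the germ line. The count of other adhesion genes called in the early soma was 1, and became 9 with DESeq2, 2 with RLE size factors, 4 without a filter, 2 with a replicate block and 1 to 3 without 1 library. The mid count of 7 became 10 with DESeq2, 9 without a filter, 8 with a replicate block, 3 with only the compared libraries and 4 to 6 without 1 library, and the late count of 0 became 2 with DESeq2 and 10 with only the compared libraries. From early to mid under yki RNAi the members called went from 2 to 1 with only the compared libraries and to 3 with DESeq2, and were 1 to 3 without 1 library, Nrt being the gene gained in both. At the other somatic steps the members called went from 2 to 3 with DESeq2 and without a filter (early to mid, hpo RNAi, wrapper gained), from 3 to 4 with DESeq2 and the stricter filter (mid to late, hpo RNAi, Fas2 gained) and from 2 to 3 with DESeq2 and only the compared libraries (mid to late, yki RNAi, Con gained). Over all 10672 genes DESeq2 called 693 (early to mid) and 2036 (mid to late) under hpo RNAi, against 290 and 1687 by edgeR. Under yki RNAi it called 311 and 1758, against 73 and 1407. Without a filter edgeR called 366 of 13985 genes early to mid under hpo RNAi. With the stricter filter it called 1846 of 7450 mid to late under hpo RNAi. With only the compared libraries it called 1569 of 9427 mid to late under yki RNAi. Nothing is read from the members gained. All genes called between the RNAi conditions in the soma numbered 261, 267 and 110, against 758, 499 and 189 with DESeq2 and 76, 137 and 641 with only the compared libraries; in the germ line they numbered 11 and 20 against 76 and 100 with DESeq2 and 26 and 56 without a filter.

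Some changes that were not called turned sign. With only 1 library left out, the germ line log2 fold changes of hpo RNAi over yki RNAi ranged mid from -0.40 to 4.51 for Ama, -0.33 to 2.22 for Con and -0.0095 to 0.26 for Fas2, and late from -1.29 to 0.066 for Fas3 and -2.72 to 0.45 for Con. In the soma, also with 1 library left out, the log2 fold changes between stages ranged from -0.65 to 0.31 for Con (early to mid, hpo RNAi), -0.077 to 0.12 for Fas2 (early to mid, yki RNAi) and -0.28 to 0.24 for wrapper (mid to late, yki RNAi). The wrapper value was -0.020 with a stricter filter. The cause was not tested. Same-numbered libraries did not deviate together (r from -0.08 to 0.13 in 27 pairs, 2 over 0.1), so the replicate numbers are not taken to pair samples; with the replicate block Con in the mid germ line was -0.60, and Con was called between soma and germ line under hpo RNAi mid and late. Counts limit Con and wrapper in the germ line, where libraries without a count occur in most groups.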
